A study of Mus musculus with 26 samples.

Results

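The Zscan4, Dppa2, Dppa4 and Zfp352 genes are known from the 2-cell mouse embryo, in which the zygotic genome is switched on, or from its regulation, and the Obox genes form the oocyte-specific homeobox family. Their transcripts were followed in fully grown germinal vesicle (GV) oocytes, which are arrested before meiosis resumes and make little new RNA. The set held Zscan4c, Zscan4d, Zscan4f, Dppa2, Dppa4, Zfp352, Obox1, Obox3, Obox5 and Obox6, chosen by name. All 10 were among the 24450 features of the count table. Of these, 6 (Zscan4c, Zscan4d, Dppa2, Dppa4, Obox1 and Obox5) had enough counts to be tested, and the other 4 are given as counts.

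RNA was sequenced from pools of 10 GV oocytes, and a pool is called a biological replicate in the labels, so p-values measure the spread between pools. LCD KO oocytes (7 libraries) had both Tet3 alleles floxed at the low-complexity domain (LCD) and carried Zp3-Cre, a recombinase driven by an oocyte promoter. Tet3 is a dioxygenase that oxidises methylated cytosine. HD mutant oocytes carried a floxed Tet3 LCD allele with an HD mutation and Zp3-Cre (5 libraries), where the labels do not say what HD stands for. Dnmt3a KO oocytes had floxed Dnmt3a, the de novo DNA methyltransferase of oocytes, and Zp3-Cre (2 libraries). DKO oocytes had both the floxed Dnmt3a and the floxed Tet3 LCD alleles with Zp3-Cre (2 libraries). A further group was labelled Tet3 KO, with floxed Tet3 and Zp3-Cre (2 libraries). WT oocytes were homozygous for the floxed Tet3 LCD allele and had no Cre (6 libraries), so every group set against WT differed from it in Cre as well. Another 2 columns, labelled as lacking Tet1, Tet2 and Tet3, held the same values as the labelled Tet3 KO columns in all 24450 features and were counted once, which left 24 distinct libraries. The labels used here name neither the strain nor the age of the mice.

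The labels name 3 batches. Batch 1 held LCD KO 1 to 3 and WT 1 to 3. Batch 2 held LCD KO 4 and 5, HD mutant 1 to 3 and WT 4. Batch 3 held LCD KO 6 and 7, WT 5 and 6 and all Dnmt3a KO, DKO and labelled Tet3 KO libraries. HD mutant 4 and 5 had no stated batch and entered no test with a batch term. Libraries of batch 1 held 3329734 to 4309573 counts. Those of batch 2 held 5403852 to 7833087, those of batch 3 held 2558479 to 4144414, and HD mutant 4 and 5 held 2242310 and 1838824. The targeted genes were read first. Tet3 lay between 43.9 and 199 CPM (counts per 1000000 counts, scaled with TMM factors) in LCD KO, against 157 to 427 CPM in WT. LCD KO and WT did not overlap within any batch, with ratios of means of 0.218, 0.426 and 0.340 in batches 1, 2 and 3. In batch 2 mean Tet3 was 153 CPM in HD mutant and 427 CPM in WT 4. In batch 3 it was 61.4 CPM in DKO and 188 CPM in WT. Dnmt3a lay between 97.3 and 132 CPM in Dnmt3a KO and DKO libraries, against 237 to 620 CPM in WT. The libraries labelled Tet3 KO had 262 and 357 CPM of Tet3, within the WT range over all batches, and 142 and 105 CPM of Dnmt3a, below it. In batch 3 mean Tet3 was 309 CPM in labelled Tet3 KO, 305 in Dnmt3a KO and 188 in WT. Mean Dnmt3a was 124, 120 and 329 CPM in the same order, and neither group overlapped WT in either gene. The Tet3 level therefore went against the Tet3 KO label, and every direction given for these libraries is that of the libraries labelled Tet3 KO.

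In mouse embryonic stem cells and early embryos, Dppa2 and Dppa4 bind chromatin together and help to activate Dux, a homeobox gene, and through it the Zscan4 genes and other genes of the 2-cell stage. Zscan4 proteins are zinc finger proteins of the 2-cell embryo and of rare embryonic stem cells, known for their part in telomere lengthening. The Obox genes form a homeobox family in which some members are stored as maternal transcripts in the oocyte and others are transcribed in the 2-cell embryo. DNA methylation laid down by Dnmt3a during oocyte growth lies mostly in transcribed gene bodies, while Tet3 acts on methylated cytosine in the zygote.

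The RefSeq promoter table had an entry for 7 of the 10 genes, all but Dppa2, Dppa4 and Obox6. The start regions of the 4 tested among them are shown for the near identity within each family and because CpG sites, the targets of methylation, are few in them. The windows lie before the annotated transcripts, so their identity does not bear on how reads are separated between copies. Each line gives the 250 bases before the annotated start, 5′ to 3′ on the gene's strand, from RefSeq on GRCm38.p6, with CpG sites in capitals. The Zscan4c window is chr7:11005495-11005744 (plus strand) and the Zscan4d window chr7:11166149-11166398 (minus strand). The Obox1 window is chr7:15547007-15547256 (plus strand) and the Obox5 window chr7:15750120-15750369 (plus strand).
Zscan4c: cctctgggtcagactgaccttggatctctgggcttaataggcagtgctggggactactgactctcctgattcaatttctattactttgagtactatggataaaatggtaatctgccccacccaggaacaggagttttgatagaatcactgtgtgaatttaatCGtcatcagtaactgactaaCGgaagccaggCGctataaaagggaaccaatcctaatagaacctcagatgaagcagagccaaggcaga
Zscan4d: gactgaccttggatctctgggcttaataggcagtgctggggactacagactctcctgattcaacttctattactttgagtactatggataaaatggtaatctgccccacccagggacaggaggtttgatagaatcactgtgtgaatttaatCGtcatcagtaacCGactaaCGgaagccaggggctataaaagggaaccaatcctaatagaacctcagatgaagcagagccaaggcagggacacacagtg
Obox1: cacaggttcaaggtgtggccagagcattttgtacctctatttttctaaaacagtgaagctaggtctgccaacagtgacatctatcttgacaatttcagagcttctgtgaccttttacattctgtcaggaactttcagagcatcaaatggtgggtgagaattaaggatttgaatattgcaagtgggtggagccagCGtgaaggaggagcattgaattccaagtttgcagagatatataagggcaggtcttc
Obox5: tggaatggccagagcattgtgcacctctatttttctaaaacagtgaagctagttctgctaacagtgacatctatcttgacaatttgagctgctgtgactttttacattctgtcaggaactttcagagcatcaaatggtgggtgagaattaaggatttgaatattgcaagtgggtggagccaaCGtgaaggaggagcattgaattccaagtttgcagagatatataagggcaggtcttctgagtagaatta

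The Zscan4c and Zscan4d windows were 97.1% identical over 239 aligned bases, and the Obox1 and Obox5 windows 95.8% identical over 238. Each Zscan4 window above held 3 CpG sites and each Obox window 1, against a median of 6 over 32851 RefSeq windows of the same length, of which 18.8% held at most 1 and 37.8% at most 3. The windows of Zscan4f and Obox3 held 3 and 1 CpG sites, and that of Zfp352 held 2. TATAAA, searched on both strands, had 1 match in each of the Zscan4c, Zscan4d, Zscan4f and Obox3 windows and occurred in 12.4% of all windows. TATATAA, also searched on both strands, had 1 match in each of the Obox1, Obox3 and Obox5 windows, 19, 30 and 31 bases before the start, and occurred in 3.04% of all windows. TAATCC, a motif bound by homeodomain proteins of the bicoid class, had 9 matches in the Zfp352 window and 1 in that of Obox3, and occurred in 6.25% of all windows. These matches describe letters in a window and are not binding sites.

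Transcripts of the family members also share long stretches, which limits which gene a read can be assigned to. Of the 150-base words of the Zscan4f transcript, 86.2% were also present in transcripts of other genes (GENCODE M21), and the share was 61.0% for Zscan4c and 13.0% for Zscan4d. Aligned transcripts were 99.5% identical between Zscan4c and Zscan4f and 97.5% between Zscan4c and Zscan4d. For Obox1 the shared words came to 31.4%, all with Obox2, and the transcripts of this pair were 99.2% identical. Dppa2 shared 20.1% and Dppa4 12.6% of their words with annotated copies (Gm9788 and Gm8023 for Dppa2, Gm14058 for Dppa4), and Obox3 shared 8.47%. Obox5, Obox6 and Zfp352 shared none. The notes used here do not say how the authors treated reads with several alignments, so the Zscan4c, Zscan4f and Obox1 counts are uncertain between copies.

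**Figure D1:**
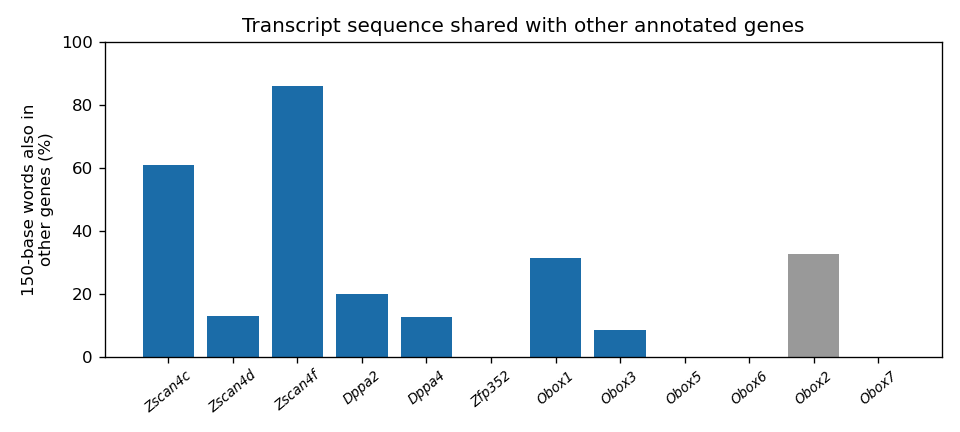
Percentage of 150-base words of each gene's transcript that also occur in transcripts of other genes (blue, the 10 genes of the set; grey, Obox2 and Obox7). Zscan4f (86.2%) and Zscan4c (61.0%) share most, and Obox5, Obox6, Zfp352 and Obox7 share none.

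The 10 genes ranged from abundant oocyte transcripts to none detected. Per kilobase of transcript, the median level over 24 libraries was 570 CPM for Obox1 and 443 CPM for Obox5, followed by 54.8 CPM for Dppa2, 9.96 CPM for Dppa4, 1.93 CPM for Zscan4d and 0.638 CPM for Zscan4c. Obox2, a family member outside the set, stood above all of them at 2056 CPM per kilobase. The remaining genes were at or near 0. Zfp352, a zinc finger gene of the 2-cell embryo, had 0 counts in all 24 libraries, which allows a level of up to 0.0304 CPM over all of them (3 counts, counting error only). Zscan4f had 13 counts in all, spread over 7 libraries, with at most 3 in any. Obox6, transcribed in the embryo and known as a factor that helps reprogramming of mouse cells, had 9 counts over 7 libraries.

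Obox3, an Obox gene of the 2-cell embryo, had 16 counts over 8 libraries, of which 5 were in labelled Tet3 KO 1. It had 1 count over the 7 LCD KO libraries, 1 over the 5 HD mutant libraries and 7 over the 6 WT libraries. Zscan4f had 2 counts over the LCD KO libraries, 3 over the HD mutant libraries and 4 over the WT libraries. In the DKO libraries Zscan4f, Obox3 and Obox6 all had 0 counts, which allows up to 0.495 CPM. Counts this low allow no comparison between groups.

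**Figure D2:**
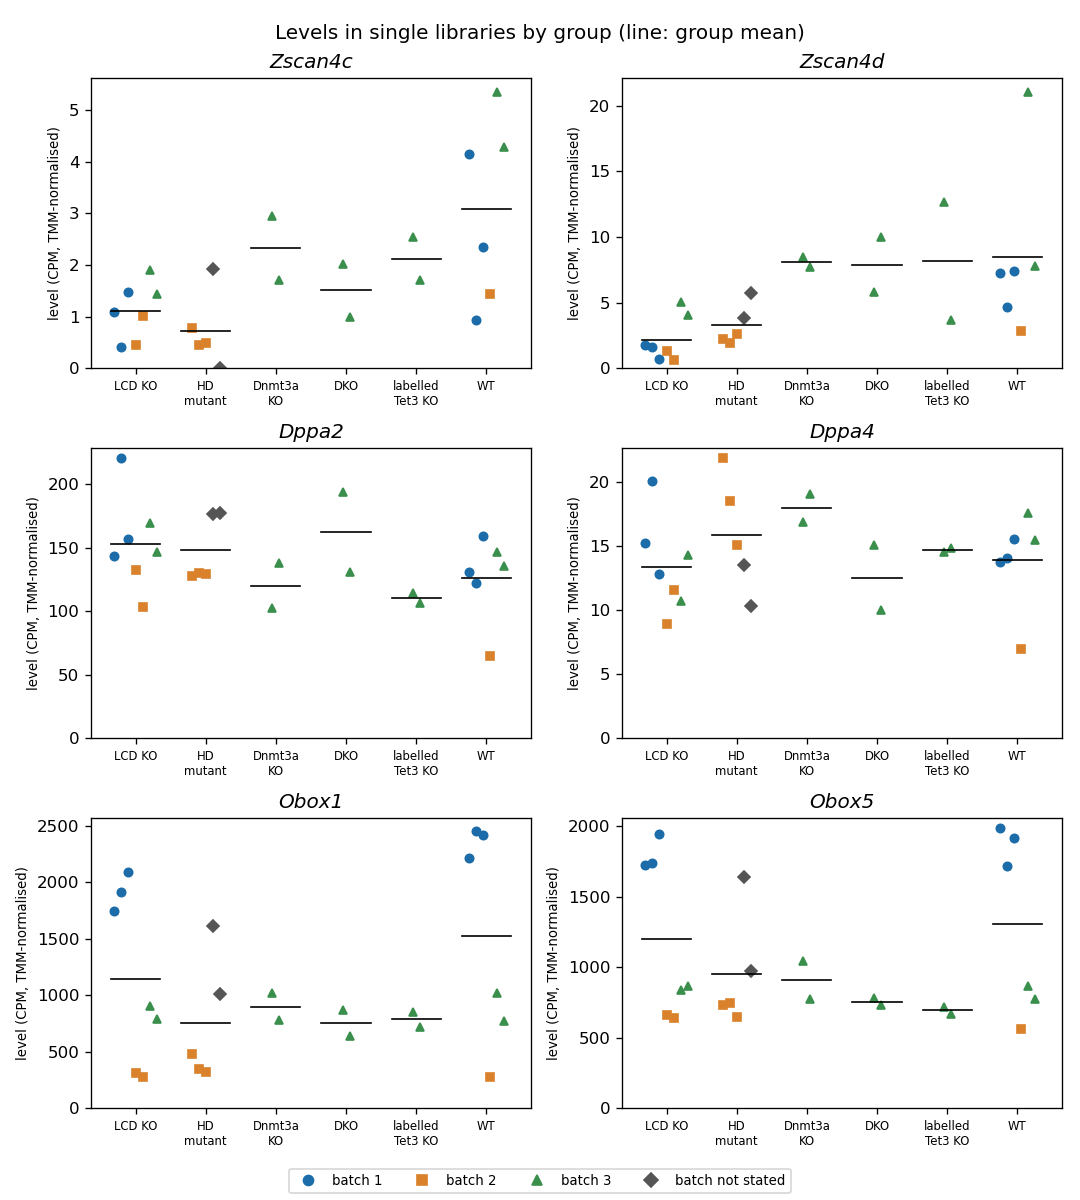
Levels (CPM, linear axes from 0) of the 6 tested genes in each of 24 libraries by group, with symbols for batch and a line at the group mean. WT libraries reach 21.1 CPM of Zscan4d and LCD KO libraries at most 5.05, while Obox1 and Obox5 separate by batch within groups.

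Loss of the Tet3 low-complexity domain went with fewer Zscan4 reads. Zscan4d, the copy best known from 2-cell embryos, fell by 1.79 ± 0.34 (log2 fold change ± SE) in LCD KO relative to WT ( edgeR quasi-likelihood test with batch as a term, adjusted p = 0.000489). Zscan4c, the copy best known from embryonic stem cells, fell by 1.29 ± 0.41 (adjusted p = 0.0250). Dppa2 rose by 0.39 ± 0.14 (adjusted p = 0.0489), whereas Dppa4, Obox1 and Obox5 did not pass the test. Of the 6 tested genes 3 were called, 1 higher and 2 lower, where 18.3% of the 11794 genes tested were called in this comparison, 8.89% higher and 9.44% lower. The median log2 fold change of the 6 was -0.06, against -0.02 over all genes tested.

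Zscan4d had 1.82, 1.64 and 0.736 CPM in LCD KO 1 to 3, against 7.25, 4.71 and 7.42 CPM in WT 1 to 3 of the same batch. In batch 2 it had 1.34 and 0.677 CPM in LCD KO 4 and 5 and 2.87 CPM in WT 4. In batch 3 it had 5.05 and 4.05 CPM in LCD KO 6 and 7, against 21.1 and 7.76 CPM in WT 5 and 6. Every LCD KO library was below every WT library of its own batch, and the ratio of means was 0.216 in batch 1, 0.351 in batch 2 and 0.316 in batch 3. The libraries rested on few reads, 2 to 17 counts each in LCD KO and 15 to 67 in WT. Zscan4d stayed called with each of the 13 libraries of both groups left out in turn, with log2 fold changes between -2.02 and -1.55. Fitted in batch 1 alone it was called (log2 fold change -2.14, adjusted p = 0.00274), and in batches 2 and 3 alone it was not (-1.46 and -1.66, adjusted p = 0.449 and 0.204).

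Zscan4c was lower still in level, with 1 to 9 counts per library in LCD KO and 3 to 17 in WT. It had 1.09, 0.410 and 1.47 CPM in LCD KO 1 to 3, against 4.14, 0.942 and 2.34 CPM in WT 1 to 3, and the groups overlapped in this batch. In batch 2 it had 0.445 and 1.02 CPM in LCD KO 4 and 5 and 1.43 CPM in WT 4. In batch 3 it had 1.89 and 1.43 CPM in LCD KO 6 and 7, against 5.34 and 4.28 CPM in WT 5 and 6, with no overlap. The ratio of means was 0.400, 0.509 and 0.345 in batches 1, 2 and 3. The call was lost without WT 1 (adjusted p = 0.0717), without LCD KO 2 (0.0506), without LCD KO 7 (0.0596) and without the batch term (0.0533). With all 5 Zscan4 rows of the table added up (Zscan4a, b, c, d and f), which does not depend on how counted reads were split between these copies, the level was 1.92 to 6.95 CPM in LCD KO and 4.48 to 27.0 CPM in WT. Of the 656 summed counts over 24 libraries, 477 were Zscan4d and 156 Zscan4c, so the sum largely repeats these rows. Any reads left out for having several alignments would be missing from it. The ratio of means of this sum was 0.261, 0.450 and 0.318 in batches 1, 2 and 3, with no overlap within any of them. Other groups were also below WT in this sum. In batch 3 the ratio was 0.570 in Dnmt3a KO and 0.497 in DKO, without overlap, and 0.540 in labelled Tet3 KO, with overlap. In batch 2 it was 0.665 in HD mutant against WT 4, without overlap. The share of all genes without overlap was not computed. Fewer oocytes with Zscan4 transcripts in a pool and fewer transcripts per oocyte cannot be told apart in pooled RNA.

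Markers of other ovarian cells were read beside these values. The summed level of 17 granulosa and cumulus cell markers was 75.8 to 342 CPM (median 84.4) in LCD KO and 55.0 to 109 CPM (median 69.7) in WT. Inha, which was not called, reached 292 CPM and made up most of that highest sum. Of the 6 tested members 1 was higher (Hsd3b1, a steroid dehydrogenase, where 8.89% of all tested genes were higher), and Ptx3 was at 0 in all libraries. Theca and stroma markers summed to 2.87 to 6.32 CPM in LCD KO and 1.04 to 3.14 CPM in WT, with Dcn, a matrix proteoglycan and the only one tested, higher. Of 9 blood and immune markers, 1 was tested and not called, and 4 haemoglobin genes were at 0 in all libraries. Reads with several alignments may not have been counted, so these 0 values alone do not show that blood cells were absent. Of 14 tested oocyte markers, 7 were lower in LCD KO, among them Kit, Mos and Figla, and 0 were higher, where 9.44% of all tested genes were called lower and 8.89% higher, and none of the 15 was at 0 in every library of either group. The part of these differences in the Zscan4 and Dppa2 values was not tested.

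The Dppa2 difference was small beside its spread within batches. It had 143, 220 and 157 CPM in LCD KO 1 to 3 and 131, 122 and 159 CPM in WT 1 to 3. It had 133 and 103 CPM in LCD KO 4 and 5 and 64.5 CPM in WT 4, and 169 and 146 CPM in LCD KO 6 and 7 and 146 and 135 CPM in WT 5 and 6. The groups overlapped in batches 1 and 3, and the single WT library of batch 2 was the lowest of all 24. Without WT 4 the log2 fold change was 0.26 (adjusted p = 0.215). The call was lost in 9 of the 13 fits that left out 1 library (without WT 1, 2, 4 or 6 or LCD KO 2, 3, 4, 5 or 6, adjusted p 0.0555 to 0.215), and in each batch fitted alone (0.110, 0.296 and 0.860 in batches 1, 2 and 3).

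By the same test Dppa4 was called in the HD mutant and the Zscan4 genes were not. For Zscan4c the estimated fall against WT was larger than in LCD KO, with a wider error (values below). Dppa4, the partner of Dppa2, rose by 1.04 ± 0.27 on the log2 scale in HD mutant relative to WT (edgeR adjusted p = 0.0218) and by 0.98 ± 0.25 relative to LCD KO (adjusted p = 0.0284). It was the 1 called gene of the 6 in each comparison, where 7.83% of all tested genes were called in HD mutant against WT and 2.08% in HD mutant against LCD KO. These comparisons share the HD mutant libraries, and WT and LCD KO of other batches enter the fit. In batch 2 Dppa4 had 21.9, 18.5 and 15.1 CPM in HD mutant 1 to 3, 8.90 and 11.6 CPM in LCD KO 4 and 5 and 6.99 CPM in WT 4. All 3 HD mutant libraries were above the other libraries of the batch. HD mutant 4 and 5, with no stated batch, had 13.5 and 10.4 CPM, within the WT range over all batches of 6.99 to 17.6 CPM.

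The Dppa4 difference rests on few libraries. Without WT 4 its log2 fold change against WT was 0.77 (adjusted p = 0.162), and without HD mutant 1 it was 0.90 (0.0840). Against LCD KO it was not called without LCD KO 4 (adjusted p = 0.152), without HD mutant 1 (0.140) or without HD mutant 2 (0.0724). With HD mutant 4 and 5 added and no batch term, it was 0.21 against WT (adjusted p = 0.711) and 0.27 against LCD KO (adjusted p = 0.714), and in batch 2 alone 1.43 (0.175) and 0.85 (0.273).

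Zscan4d in the HD mutant had 2.21, 1.93 and 2.60 CPM in batch 2, against 2.87 CPM in WT 4, and 3.86 and 5.76 CPM in HD mutant 4 and 5. The 3 batch 2 values were all above those of LCD KO 4 and 5 (1.34 and 0.677 CPM), yet the log2 fold change against LCD KO, 1.27 ± 0.51, did not pass (adjusted p = 0.256), nor did that against WT, -0.53 ± 0.52 (adjusted p = 0.581). Zscan4c had 0.788, 0.444 and 0.496 CPM in HD mutant 1 to 3, 1.93 CPM in HD mutant 4 and 0 counts in HD mutant 5, against 1.43 CPM in WT 4. Its log2 fold change against WT was -1.51 ± 0.68 (adjusted p = 0.153), and it was called without the batch term over the same libraries (-2.36, adjusted p = 0.0292) and over all 24 (-2.12, adjusted p = 0.0359). Dppa2 had 128, 130 and 129 CPM in HD mutant 1 to 3, between the 133 and 103 CPM of LCD KO 4 and 5 and above the 64.5 CPM of WT 4. Its log2 fold change against WT was 0.65 ± 0.21 (adjusted p = 0.0635 in edgeR and 0.0368 in DESeq2). Obox1 and Obox5 did not pass in either comparison.

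**Figure D3:**
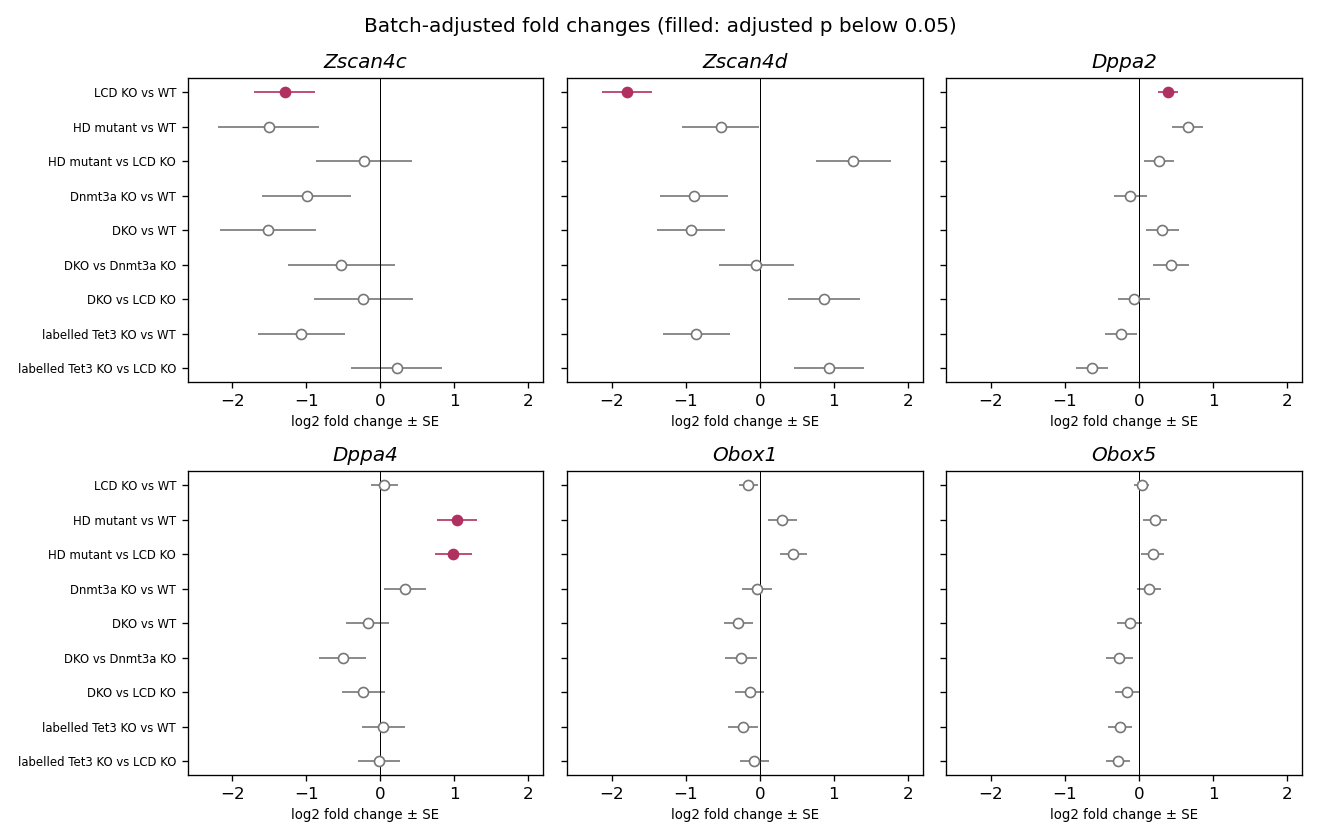
Batch-adjusted log2 fold changes ± SE of the 6 tested genes in 9 comparisons, each named with the group on top of the ratio first; filled symbols have an adjusted p below 0.05. Filled symbols are Zscan4c, Zscan4d and Dppa2 in LCD KO against WT and Dppa4 in both HD mutant comparisons.

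Batch 3 held all groups but the HD mutant, so Zscan4 levels are given in order within it. From low to high, Zscan4d averaged 4.55 CPM in LCD KO, 7.91 CPM in DKO, 8.09 CPM in Dnmt3a KO, 8.18 CPM in the libraries labelled Tet3 KO and 14.4 CPM in WT. The 2 libraries of each were 5.05 and 4.05 CPM in LCD KO, 5.79 and 10.03 in DKO, 8.46 and 7.72 in Dnmt3a KO, 12.7 and 3.67 in labelled Tet3 KO and 21.1 and 7.76 in WT. Of neighbouring groups in this order, LCD KO and DKO did not overlap and the other neighbours did. Zscan4c averaged 1.51 CPM in DKO, 1.66 in LCD KO, 2.13 in labelled Tet3 KO, 2.33 in Dnmt3a KO and 4.81 in WT. Its values were 2.01 and 1.003 CPM in DKO, 2.54 and 1.71 in labelled Tet3 KO and 2.94 and 1.72 in Dnmt3a KO. Both WT libraries, at 5.34 and 4.28 CPM, were above the 8 others of the batch.

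No tested gene of the set was called in any comparison of Dnmt3a KO, DKO or the libraries labelled Tet3 KO. All genes called in these comparisons came to 0.755% (Dnmt3a KO against WT), 3.79% (DKO against WT), 1.99% (DKO against Dnmt3a KO), 0.314% (DKO against LCD KO), 1.37% (labelled Tet3 KO against WT) and 7.59% (labelled Tet3 KO against LCD KO). At an unadjusted p below 0.05, edgeR gave 1 of the 6 in DKO against WT, 1 in labelled Tet3 KO against LCD KO and 0 in the 4 others. The share of all tested genes at that threshold was not computed, so these counts are no result about the set. DESeq2 called none of the 6 at an adjusted p below 0.05. With 2 libraries on 1 side, the errors of the Zscan4 genes were wide. The log2 fold change of Zscan4d relative to WT was -0.88 ± 0.46 in Dnmt3a KO, -0.93 ± 0.46 in DKO and -0.85 ± 0.45 in labelled Tet3 KO, with adjusted p of 0.427, 0.300 and 0.621. That of Zscan4c was -0.99 ± 0.60, -1.52 ± 0.64 and -1.07 ± 0.59 in the same order, with adjusted p of 0.498, 0.188 and 0.637. These comparisons share the WT libraries with each other and with LCD KO against WT.

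Whether the Tet3 domain deletion acted differently with and without Dnmt3a was asked by the interaction, DKO minus Dnmt3a KO less LCD KO minus WT. LCD KO and WT also differed in Zp3-Cre, whereas DKO and Dnmt3a KO both carried it. A part of Cre in the interaction therefore cannot be told apart from that of Dnmt3a. For Zscan4d the difference between DKO and Dnmt3a KO was -0.05 ± 0.51 on the log2 scale, against -1.79 ± 0.34 between LCD KO and WT. The interaction was 1.75 ± 0.61, with an unadjusted p of 0.00769 in edgeR and an adjusted p of 0.621 over all genes, so it was not called. For Zscan4c it was 0.77 ± 0.83, for Dppa2 0.05 ± 0.28 and for Dppa4 -0.56 ± 0.36, none of them called (0.0678% of all tested genes were called).

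Dppa2 and Dppa4 did not pass the test against WT in the other groups of batch 3. Dppa2 had 102 and 138 CPM in Dnmt3a KO, 194 and 131 in DKO and 114 and 106 in labelled Tet3 KO, against 146 and 135 in WT. Its log2 fold change in labelled Tet3 KO against LCD KO was -0.63 ± 0.22 (adjusted p = 0.0831), and the groups did not overlap in batch 3. Dppa4 had 16.9 and 19.1 CPM in Dnmt3a KO, 15.1 and 10.03 in DKO and 14.5 and 14.9 in labelled Tet3 KO, against 17.6 and 15.5 in WT.

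The maternal Obox transcripts did not pass the test in any comparison of genotypes. Obox1 in batch 1 had 1749, 1911 and 2091 CPM in LCD KO and 2212, 2456 and 2422 CPM in WT, without overlap. In batch 2 it had 313 and 274 CPM in LCD KO, 480, 351 and 319 CPM in HD mutant and 278 CPM in WT 4. In batch 3 it had 909 and 795 CPM in LCD KO, 1018 and 778 in Dnmt3a KO, 866 and 644 in DKO, 857 and 719 in labelled Tet3 KO, and 1023 and 771 in WT, all overlapping. The batch-adjusted log2 fold change of Obox1 in LCD KO was -0.15 ± 0.12 (edgeR adjusted p = 0.423).

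Obox5 had 1727, 1739 and 1944 CPM in LCD KO 1 to 3 and 1985, 1722 and 1918 CPM in WT 1 to 3. In batch 2 it had 664 and 638 CPM in LCD KO, 734, 749 and 649 CPM in HD mutant and 563 CPM in WT 4. In batch 3 it lay between 671 and 1046 CPM in the 5 groups. Its log2 fold change in LCD KO was 0.04 ± 0.10 (adjusted p = 0.846), the smallest in size of the 6 tested genes. The other 2 Obox genes of the table followed the same pattern: Obox2 had a log2 fold change of -0.19 ± 0.13 and Obox7 of -0.14 ± 0.12 in LCD KO, and neither was called in any of the 9 comparisons.

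The Obox genes differed more between batch 1 and the other batches than in any of the 9 comparisons of genotypes. The contrast between batches was added after the data had been seen, and a batch is only what the labels call one. Relative to batch 1, the log2 difference of Obox1 was -2.86 ± 0.16 in batch 2 and -1.29 ± 0.14 in batch 3 (± SE). The differences for Obox5 were -1.57 ± 0.13 and -1.13 ± 0.12, for Obox2 -2.68 ± 0.16 and -1.56 ± 0.15, and for Obox7 -2.45 ± 0.15 and -1.06 ± 0.14. All were called, as were 48.6% of all tested genes between batches 2 and 1 and 31.6% between batches 3 and 1. Between batches 2 and 1, 0.322% of all tested genes had a lower value than Obox1.

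The order of the batches was the same in both groups that span them. Mean Obox1 was 6.52 times higher in batch 1 than in batch 2 among LCD KO libraries and 8.50 times among WT libraries, where batch 2 held 1 library. As an unscaled share of all counts, the 6 Obox rows of the table together made up 0.943% in batch 1, 0.272% in batch 2 and 0.565% in batch 3 of LCD KO, and 1.09%, 0.251% and 0.563% of WT. HD mutant 4 and 5 had 1614 and 1014 CPM of Obox1. TMM factors were 0.733 to 0.760 in batch 1 and 1.03 to 1.20 in batches 2 and 3, and batch 2 also had 1.14% to 3.11% of counts on the ribosomal RNA precursor Rn45s, against at most 0.714% elsewhere. The part of these in the batch differences was not tested. The Zscan4 genes did not share this order: Zscan4d was highest in batch 3, with log2 differences of 1.32 ± 0.37 from batch 1 (adjusted p = 0.00600) and, for batch 2 minus batch 3, -2.18 ± 0.44 (adjusted p = 0.000245, with 47.2% of all tested genes called). A mean over batches for any of these genes depends on which batches a group holds.

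**Figure D4:**
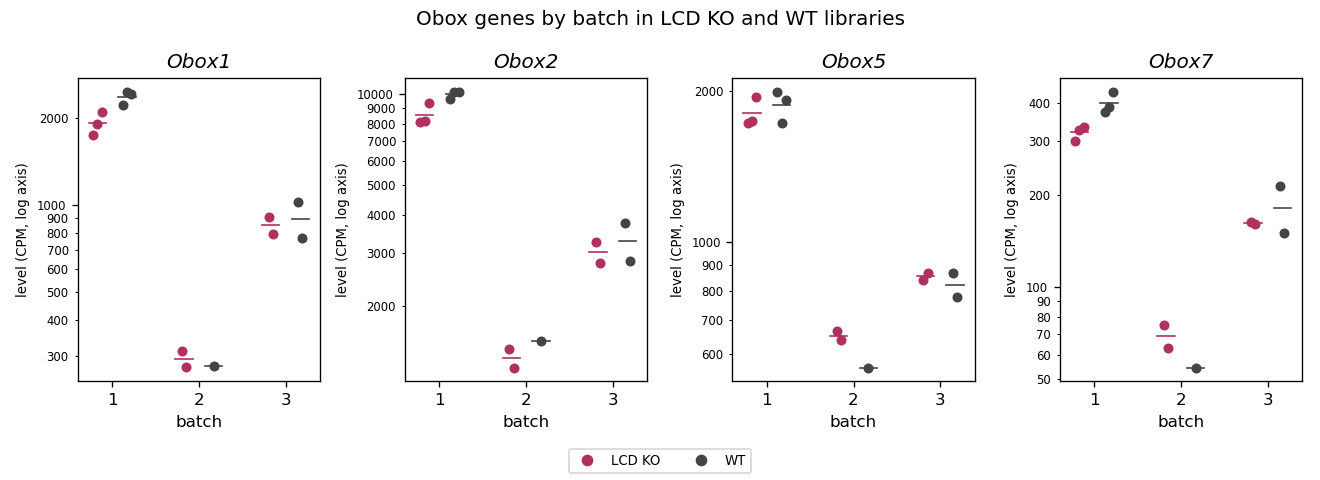
Levels (CPM, log axes) of Obox1, Obox2, Obox5 and Obox7 in LCD KO (left of each pair) and WT libraries by batch, with lines at the means. All 4 genes are highest in batch 1 and lowest in batch 2 in both groups, and the batches lie farther apart than LCD KO and WT of the same batch.

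With batch means removed, the libraries in which members varied together could be described over 22 libraries. Pearson's r was 0.66 between Obox1 and Obox5, 0.52 between Zscan4c and Zscan4d and 0.41 between Dppa2 and Dppa4, and Obox1 had r = 0.85 with both Obox2 and Obox7. These values share libraries and genotype differences, and the Obox1 and Obox2 counts share sequence. Among 11698 candidate genes, the 3 most like Zscan4d were Tlr8 (r = 0.87), Gm20759 (0.83) and Adora2b (0.80), and the 3 most like Zscan4c were Ddhd1 (0.79), Sesn3 (0.78) and Mapkapk5 (0.78). For Dppa2 they were Sfi1 (r = 0.83), Ebna1bp2 (0.82) and Defb41 (0.82), and for Dppa4 Lipt2 (0.83), Serpinb3a (0.82) and D5Ertd577e (0.79). For Obox1 they were E330034G19Rik (0.83), Oas1h (0.80) and Tsg101 (0.79), and for Obox5 Sema3a (0.69), Gm21284 (0.69) and Khdc1a (0.68).

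Other genes of the 2-cell programme differed widely in level. Of 55 further genes of the 2-cell embryo, 47 were in the table, 20 of these had 0 counts in all 24 libraries (Dux, Usp17la and Tdpoz2 to 4 among them), and 10 could be tested. The genes at 0 include families of near-identical copies, for which the treatment of reads with several alignments is not known. In LCD KO, 1 of the 10 was higher and 3 were lower, where 8.89% of all tested genes were called higher and 9.44% lower. Lmx1a, a LIM homeobox gene, fell by 1.23 ± 0.44 on the log2 scale (edgeR adjusted p = 0.0469), Pramef17 by 0.77 ± 0.27 (0.0468) and Arg2, an arginase, by 0.54 ± 0.10 (0.000812), and Pramef20 rose by 0.30 ± 0.10 (0.0417). Lmx1a rested on few reads, 177 counts over all 24 libraries, with means of 1.36 CPM in LCD KO and 3.30 CPM in WT. The median log2 fold change of the 10 was -0.46, against -0.02 over all genes tested. In HD mutant against WT 0 were higher and 3 lower (Fgf1, a growth factor, Tmem92 and Sp110), where 7.83% of all tested genes were called. In HD mutant against LCD KO only Arg2 was called, higher by 0.64 ± 0.16 on the log2 scale, where 2.08% of all tested genes were called. In DKO against WT Lmx1a alone was called, where 3.79% of all tested genes were called. It had 2 counts over both DKO libraries and 33 over WT 5 and 6, a ratio of 0.0632 (95% exact interval 0.00735 to 0.247, counting error only).

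Of 9 activators of the programme, 7 were tested, and Yap1, a transcriptional coactivator of the Hippo pathway, fell by 0.77 ± 0.16 in LCD KO (edgeR adjusted p = 0.00121). Yap1 and Tfap2c, an AP-2 transcription factor, fell by 1.17 ± 0.24 and 1.02 ± 0.26 in HD mutant relative to WT (adjusted p = 0.00322 and 0.0177). These 2 of the 7 were the activators called there, where 7.83% of all tested genes were called. Elsewhere among the 9 comparisons 0 of the 7 were called, where 0.314% to 7.59% of all tested genes were called. Of 24 repressors, 22 were tested, and in LCD KO 4 were lower and 1 was higher. Together the calls were 5 of 22 repressors and 1 of 7 activators, where 18.3% of all tested genes were called, a share near that of either list. Those lower were Kdm1a, a histone demethylase (-0.69 ± 0.25), Dnmt1, the maintenance DNA methyltransferase (-0.59 ± 0.17), Chaf1a, a histone chaperone subunit (-0.46 ± 0.15), and Smchd1 (-0.41 ± 0.14), and Hdac1, a histone deacetylase, was higher (0.51 ± 0.18). The median log2 fold change in LCD KO was -0.28 for both lists. Setdb1, a histone methyltransferase, fell by 0.71 ± 0.20 in HD mutant relative to WT (adjusted p = 0.0251). It was the 1 called of the 22 repressors, where 7.83% of all tested genes were called. In DKO relative to WT E2f6, a repressor of the E2F family, was called with 0 counts over both DKO libraries and 12 over WT 5 and 6, which allows a ratio of up to 0.375 (95% exact interval, counting error only). E2f6 was the 1 called of the 22 repressors, where 3.79% of all tested genes were called. Of 15 pluripotency genes, 10 were tested. Dppa5a, an RNA-binding protein, rose by 0.96 ± 0.24 in HD mutant relative to WT (adjusted p = 0.0141) and fell by 0.85 ± 0.24 in labelled Tet3 KO relative to LCD KO (adjusted p = 0.0366). It was the 1 called gene of the 10 in each, where 7.83% and 7.59% of all tested genes were called. In LCD KO relative to WT 0 of the 10 were called, where the share of all tested genes was 18.3%.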

How the data were processed

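The authors deposited raw, unnormalized read counts per gene symbol for 26 libraries of pooled GV oocytes. The submitters' processing notes name Trim Galore 0.5.0, HISAT2 2.1.0, the mm9 genome and featureCounts 1.6.4. They do not give the annotation or the strand setting. The 92 ERCC rows were left out, which left 24450 features. Duplicate columns were counted once.

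The main test was edgeR 4.0.16 (R 4.3.3, quasi-likelihood F), with TMM factors, filterByExpr by group, robust dispersions and terms for group and batch over 22 libraries. It kept 11794 genes and 14 residual degrees of freedom. A gene was called at a Benjamini-Hochberg adjusted p below 0.05 over all tested genes, and every adjusted p is from this test unless DESeq2 (1.42.0) is named. The procedure was tested on simulated counts for LCD KO against WT only, with changes placed in genes above a minimum mean count. Zscan4c lay below that minimum, so the simulation does not cover genes this low or the other comparisons. CPM were computed from the counts with TMM factors over 24 libraries. Shared words, identities and promoter letters were computed with Python 3.11.15 and Biopython 1.88 from GENCODE M21 transcripts and RefSeq windows, both on GRCm38, a build other than that of the counts.

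The 10 genes, the gene lists and the tests were chosen with earlier results of these data known. All 10 genes are described, then up to 5 called genes per list and comparison by size of change, and the 3 genes most like each tested member by Pearson's r of log2 CPM with batch means removed (candidates with a mean of at least 1 CPM). Reads carried no molecular identifiers, so intervals and the limit of 3 counts for a 0 cover counting error only. Alternatives were DESeq2, its size factors in edgeR, no filter, no batch term, a replicate block, single batches, all 24 libraries and each library left out. A fit without WT for HD mutant against LCD KO and a fit of batches 1 and 3 for LCD KO against WT were chosen after seeing the data.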

Additional observations from a re-analysis of the deposited data

Results flagged for a closer look

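In the WT group, 2 values stood far from the other libraries, out of 18 sets of values tested. Chance flags about 1 set in 20 where all libraries of a group share 1 level. Batches were pooled within groups here. All 6 genes were called between batches 2 and 3, as were 47.2% of all tested genes, so that rate need not hold. Zscan4d was 21.1 CPM in WT 5, against 7.76 CPM in the next highest of the 6 WT libraries, and the gap was 0.731 of the group's range (limit 0.625). Without WT 5 the log2 fold change of Zscan4d in LCD KO relative to WT was -1.55, still called by edgeR (adjusted p = 0.00337). Dppa4 was 6.99 CPM in WT 4, the only WT library of batch 2, against 13.8 CPM in the next lowest, a gap of 0.642 of the range. WT 4 also had the lowest Dppa2 level of all 24 libraries, 64.5 CPM. Without it the Dppa2 call in LCD KO and the Dppa4 call in HD mutant relative to WT were lost.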

How the results depend on the processing

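The 5 called log2 fold changes of the 6 genes kept their direction under every alternative run, and 64 of the 854 values of single genes changed sign, none of them called in the test reported and 5 called under the alternative. Numbers of called genes over the whole table were 2162 for LCD KO against WT, 923 for HD mutant against WT, 245 for HD mutant against LCD KO, 89 for Dnmt3a KO against WT, 447 for DKO against WT, 235 for DKO against Dnmt3a KO, 37 for DKO against LCD KO, 162 for labelled Tet3 KO against WT, 895 for labelled Tet3 KO against LCD KO and 8 for the interaction. With DESeq2 size factors in edgeR every number stayed within 1.5 times of these. Without the filter the numbers were 410 for HD mutant against LCD KO, 311 for Dnmt3a KO against WT, 672 for DKO against WT, 449 for DKO against Dnmt3a KO, 122 for DKO against LCD KO, 284 for labelled Tet3 KO against WT and 70 for the interaction. Without the batch term the numbers were 544 for LCD KO against WT, 365 for HD mutant against WT, 96 for HD mutant against LCD KO, 32 for Dnmt3a KO against WT, 20 for DKO against Dnmt3a KO, 13 for DKO against LCD KO, 60 for labelled Tet3 KO against WT, 368 for labelled Tet3 KO against LCD KO and 3 for the interaction. Sign changes there were Dppa4 at -0.064 and Obox5 at -0.12 in LCD KO against WT, Obox1 at -1.99 and Obox5 at -0.88 in HD mutant against WT, Dppa2 at -0.25, Obox1 at -1.58 and Obox5 at -0.76 in HD mutant against LCD KO, Obox5 at -0.52 in Dnmt3a KO against WT, Zscan4c at 0.52 and Dppa2 at 0.087 in DKO against LCD KO, Dppa4 at 0.15 in labelled Tet3 KO against LCD KO, Obox1 at 0.16 in the interaction. Over all 24 libraries without a batch term the numbers were 405 for HD mutant against WT and 99 for HD mutant against LCD KO. Sign changes there were Obox1 at -1.02 and Obox5 at -0.46 in HD mutant against WT, Dppa2 at -0.051, Obox1 at -0.61 and Obox5 at -0.34 in HD mutant against LCD KO. In batches 1 and 3 together the sign changes were Dppa4 at -0.080 and Obox5 at -0.012 in LCD KO against WT. In batch 1 alone the sign changes were Obox5 at -0.030 in LCD KO against WT. In batch 2 alone the numbers were 12 for LCD KO against WT, 40 for HD mutant against WT and 102 for HD mutant against LCD KO. Sign changes there were Obox1 at 0.11 in LCD KO against WT. In batch 3 alone the numbers were 88 for LCD KO against WT, 54 for Dnmt3a KO against WT, 179 for DKO against WT and 449 for labelled Tet3 KO against LCD KO. Sign changes there were Dppa4 at -0.40 in LCD KO against WT, Dppa2 at 0.052 and Dppa4 at 0.016 in DKO against LCD KO, Dppa4 at -0.17 in labelled Tet3 KO against WT, Dppa4 at 0.22 in labelled Tet3 KO against LCD KO. With DESeq2 the numbers were 180 for Dnmt3a KO against WT, 375 for DKO against Dnmt3a KO, 72 for DKO against LCD KO and 35 for the interaction.

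Replicate numbers of the labels were not taken as pairs in the main test. Same-numbered LCD KO and WT libraries correlated at 0.225 to 0.739 in 5 pairs, each within the same batch. The correlation was -0.388 in number 5, whose libraries lie in different batches. These correlations are of deviations from group means with batch differences left in, so they cannot tell pairing from a shared batch. Numbers of other comparisons mostly join different batches. With the replicate block in place of the batch term, the numbers were 818 for LCD KO against WT, 3477 for HD mutant against WT, 3048 for HD mutant against LCD KO, 1437 for Dnmt3a KO against WT, 1961 for DKO against WT, 24 for DKO against Dnmt3a KO, 1588 for DKO against LCD KO, 1163 for labelled Tet3 KO against WT, 2157 for labelled Tet3 KO against LCD KO and 2 for the interaction. Sign changes with the block were Dppa4 at -0.071 and Obox5 at -0.041 in LCD KO against WT, Dppa2 at -0.10, Obox1 at -2.68 and Obox5 at -1.39 in HD mutant against WT, Dppa2 at -0.41, Obox1 at -2.30 and Obox5 at -1.35 in HD mutant against LCD KO, Zscan4d at 0.39 and Obox5 at -1.04 in Dnmt3a KO against WT, Zscan4d at 0.38 in DKO against WT, Zscan4c at 0.85 in DKO against LCD KO, Zscan4d at 0.33 and Dppa4 at -0.17 in labelled Tet3 KO against WT, Obox1 at 0.13 in the interaction. Those 5 were all with the block: Obox1 and Obox5 in both HD mutant comparisons and Obox5 in Dnmt3a KO against WT, each lower. With it Zscan4d and Zscan4c stayed called in LCD KO against WT, and the Dppa2 and Dppa4 calls were lost (adjusted p 0.359 to 0.529). Elsewhere the Dppa2 call in LCD KO was lost without the filter (adjusted p 0.0532), without the batch term (0.517) and in batches 1 and 3 together (0.218), and the Dppa4 calls in HD mutant without the batch term (0.378 against WT and 0.385 against LCD KO) and, against LCD KO, without WT in the test (0.164).

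Leaving out each library in turn gave 384 to 1114 for HD mutant against WT, 26 to 116 for Dnmt3a KO against WT, 164 to 471 for DKO against WT, 55 to 172 for labelled Tet3 KO against WT, 92 to 277 for HD mutant against LCD KO, 12 to 41 for DKO against LCD KO, 260 to 876 for labelled Tet3 KO against LCD KO and 78 to 115 for DKO against Dnmt3a KO called genes. Genes whose sign changed ranged over Dppa4 -0.080 to 0.15 and Obox5 -0.012 to 0.054 in LCD KO against WT, Dppa2 -0.35 to 0.081, Obox1 -0.24 to 0.14 and Obox5 -0.095 to 0.34 in Dnmt3a KO against WT, Dppa4 -0.51 to 0.082 in DKO against WT, Dppa4 -0.020 to 0.19 in labelled Tet3 KO against WT, Zscan4c -0.47 to 0.23 in HD mutant against LCD KO, Zscan4c -0.85 to 0.14, Dppa2 -0.38 to 0.18, Dppa4 -0.57 to 0.025 and Obox1 -0.37 to 0.065 in DKO against LCD KO, Zscan4c -0.086 to 0.47, Zscan4d -0.22 to 1.57, Dppa4 -0.20 to 0.041 and Obox1 -0.20 to 0.047 in labelled Tet3 KO against LCD KO, Zscan4d -0.47 to 0.31 in DKO against Dnmt3a KO.

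Single batches were fitted where they hold both groups: the HD mutant comparisons have batch 2 alone and those of Dnmt3a KO, DKO and labelled Tet3 KO batch 3 alone; the interaction was not run by batch or with libraries left out. The cause of each change was not tested. Zscan4c and Zscan4d rest on at most 67 counts per library, so small differences between their levels were not detectable.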
